A study of Mus musculus with 238 samples.

Results

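The 39 Hox genes of the deposited table were followed through 15 brain regions and the liver of 19-month-old C57BL/6JN mice. They were taken as the rows whose symbol is Hox, a cluster letter from a to d, and a paralog number, which gave 39 of 21076 genes. The study holds 229 brain and 9 liver libraries of bulk RNA in 2 experiments. The diet experiment compared 5 females under dietary restriction (aDR, written DR for the liver) with 4 females fed ad libitum (AL). In the plasma experiment, 7 male mice received retro-orbital injections of young mouse plasma (YMP, 3 mice) or of the saline buffer PBS (4 mice). Sex is the same as experiment, so a difference between the experiments cannot be told apart from one between the sexes. The medulla gave 16 libraries (9 diet, 7 plasma) and the pons 15 (9 diet, 6 plasma, with no PBS mouse 72). Levels are CPM, a read count scaled to a common library size, here with sizes corrected by the trimmed mean of M values (TMM), and levels of different genes are compared only as CPM per kilobase of exon (CPM per kb). A Hox sum adds the CPM of the members.

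Hox genes encode homeodomain transcription factors that stand in 4 clusters. In each cluster the order of the genes along the chromosome follows the order of their anterior borders along the embryo, and the paralog number counts from the 3′ end, whose genes reach farthest forward. In the embryonic hindbrain the first to the fifth paralog groups give the segments, called rhombomeres, their identity, while the later groups act in the spinal cord and trunk. The embryonic forebrain and midbrain lie in front of all Hox borders. Medulla and pons are the adult derivatives of the hindbrain, as is the cerebellum, which arises largely from its most anterior segment.

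The 11 genes of cluster A lie on chromosome 6 (positions 52155590 to 52260880 of GRCm38, GENCODE M21), the 10 of cluster B on chromosome 11 (96194316 to 96368256), the 9 of cluster C on chromosome 15 (102921103 to 103036852) and the 9 of cluster D on chromosome 2 (74668310 to 74765142). The libraries do not mark strand, and several members overlap other genes in their exons. The share of exon bases that another annotated gene also holds was 62.8% for Hoxd3, 52.3% for Hoxd4, 52.9% for Hoxb3, 27.3% for Hoxb2 and 27.1% for Hoxa3. Hoxd3 and Hoxd4 share exons with each other, and the partner of Hoxb3 and Hoxb2 is the antisense gene Hoxb3os. Reads of these pairs cannot be told apart, so the values of these 5 genes are uncertain to that extent.

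The upstream sequences below belong to the 3 cluster D genes that the comparison of medulla with pons turned on, and to Hoxa2, the member of the second paralog group with matches to 2 motifs. They are from RefSeq on build GRCm38.p6, read 5′ to 3′ on the strand of the gene, and end just before the start site. The Hoxd3 stretch stops 66 bases earlier, where GENCODE places its first exon. Capitals mark letters that match one of 3 motifs searched on both strands. These were TGATTNAT (a Pbx-Hox site), TGACAG (a Meis site) and AGGTCA (letters bound by retinoic acid receptors).
Hoxd3 (chr2:74711743-74711926, plus strand): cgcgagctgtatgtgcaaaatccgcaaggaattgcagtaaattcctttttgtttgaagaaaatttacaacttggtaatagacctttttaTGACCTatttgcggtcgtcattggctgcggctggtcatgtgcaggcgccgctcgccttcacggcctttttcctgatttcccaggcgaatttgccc
Hoxd4 (chr2:74721728-74721977, plus strand): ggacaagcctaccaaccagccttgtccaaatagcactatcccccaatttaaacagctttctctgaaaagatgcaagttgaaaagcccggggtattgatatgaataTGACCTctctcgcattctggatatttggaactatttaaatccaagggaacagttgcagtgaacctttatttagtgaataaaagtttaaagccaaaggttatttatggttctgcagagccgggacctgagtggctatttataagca
Hoxd1 (chr2:74762730-74762979, plus strand): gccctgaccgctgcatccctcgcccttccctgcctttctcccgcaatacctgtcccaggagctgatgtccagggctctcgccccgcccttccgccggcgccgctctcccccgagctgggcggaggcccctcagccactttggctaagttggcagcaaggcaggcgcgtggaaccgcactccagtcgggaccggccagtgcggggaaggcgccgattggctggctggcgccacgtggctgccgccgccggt
Hoxa2 (chr6:52164832-52165081, minus strand): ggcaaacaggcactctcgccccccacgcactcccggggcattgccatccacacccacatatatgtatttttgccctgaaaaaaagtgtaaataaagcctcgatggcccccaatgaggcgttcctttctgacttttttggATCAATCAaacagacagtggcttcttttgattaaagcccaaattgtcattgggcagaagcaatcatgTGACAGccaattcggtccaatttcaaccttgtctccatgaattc
RefSeq windows were found for 22 members, 24 windows of 250 bases in all. The receptor letters stood in 6 of the 24 (Hoxd10, Hoxd8, Hoxd3, Hoxd4, Hoxb4 and Hoxc4), against 14.02% of 32851 windows of that length over all genes. The Meis letters stood in 2 (Hoxa2 and Hoxa3), against 15.9% of all windows. The Pbx-Hox letters stood in 2 (Hoxd11 and Hoxa2), against 2.82%. No 2 of these letter runs overlapped in the sequences printed. The Hox windows held a median of 12.5 CpG dinucleotides, and all windows a median of 6. Windows of members with a median of at least 1 CPM in medulla or pons (8 windows, median 13 CpG) and those of the other members (16 windows, median 12.5) had nearly the same count. A match of letters is a description of the sequence and does not show binding.

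Hox transcripts were found chiefly in the medulla and the pons. The 39 members summed to 158 ± 90.3 CPM in the medulla (SD, n = 16), with a range of 44.5 to 307. In the pons they summed to 86.9 ± 50.8 CPM (n = 15), with a range of 2.39 to 168. Liver came next at 13.4 ± 6.91 CPM (n = 9). That liver value depends on the scaling, since plain library totals in place of TMM gave 7.43 CPM. The other 13 brain regions had means of at most 1.78 CPM, and among their libraries the highest reached 1.72 CPM, apart from 3 of choroid plexus and 1 of olfactory bulb. The ranges of medulla and pons overlapped, and both regions' means stood above those of every other region. Since these are whole-tissue libraries, fewer cells that express a gene and less RNA per cell cannot be told apart.

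**Figure D1:**
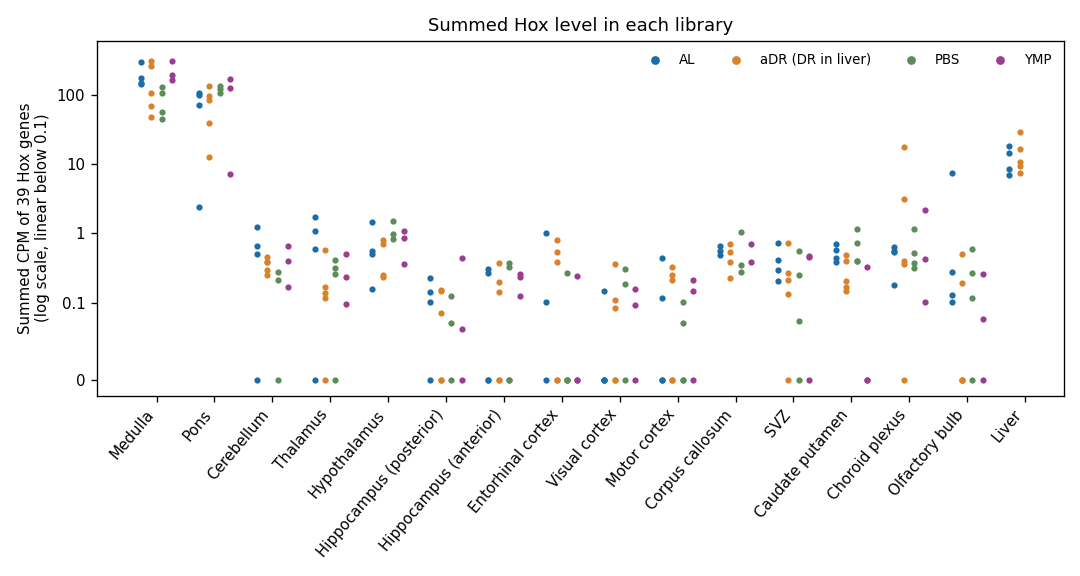
Summed CPM of the 39 Hox genes in each library (vertical axis, log scale that turns linear below 0.1 CPM) by region, coloured by treatment group, with 1 point for each library. Medulla and pons libraries stand between 2.39 and 307 CPM, liver between 7.05 and 28.5 CPM, and nearly all other libraries at or under 1.72 CPM.

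A member was called detected in a region when any library held more than 3 counts of it, the most that could be taken for stray reads. By that rule 23 members were detected in the medulla, 20 in the choroid plexus, 17 in the pons, 10 in the liver, 6 in the olfactory bulb and at most 2 in any other region. In at least 50% of a region's libraries, no member passed 3 counts in the choroid plexus or the olfactory bulb, and 5 did in the liver. In at least 8 libraries, 16 members passed 3 counts in the medulla and 13 in the pons. Those of the pons included all measured genes of the second to the fifth paralog groups (Hoxa2, Hoxb2, Hoxa3, Hoxb3, Hoxd3, Hoxa4, Hoxb4, Hoxc4, Hoxd4, Hoxa5, Hoxb5 and Hoxc5). The medulla added Hoxd1, Hoxb6 and Hoxc6. Hoxb1, which marks a single hindbrain segment in the embryo, never passed 3 counts.

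The paralog groups 10 to 13 were nearly silent. Of the 12 genes numbered 10 to 13, 2 passed 3 counts in any library. They were Hoxd13, with 27 counts in all libraries together, and Hoxc13, with 31. Both act in the embryo's tail and limbs. Hoxc12 and Hoxd12 had no counts at all, and 11 members never passed 3 counts. The sixth to ninth groups made up 0% to 12.9% of the summed CPM per kb of all members in a medulla library. In a liver library they made up 0% to 21.8%, with a mean of 9.71%. In the medulla Hoxa7 reached 4.09 CPM, Hoxb7 2.71 CPM, Hoxa6 2.18 CPM, Hoxd8 1.91 CPM, Hoxb8 1.82 CPM and Hoxd9 1.57 CPM in their highest library, each with a median at or under 0.40 CPM. In the pons none of these 6 passed 3 counts.

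Hoxb5 had the highest level per kilobase in both brainstem regions. It stood at 12.6 CPM per kb in the medulla (35.2 ± 33.5 CPM, n = 16), ahead of Hoxc4 with 7.19 CPM per kb, Hoxa5 with 5.75, Hoxd3 with 5.22 and Hoxa4 with 4.24. Then followed Hoxd1 with 3.57 CPM per kb, Hoxb2 with 3.54, Hoxc5 with 3.30, Hoxb3 with 2.74 and Hoxa2 with 2.07. Hoxd4 with 1.89, Hoxb6 with 1.76, Hoxb4 with 0.92 and Hoxa3 with 0.73 CPM per kb followed. With SDs of this size, neighbours in the order do not differ beyond their spread over libraries, while Hoxa3 (4.37 ± 1.36 CPM) lay below Hoxd3 (21.9 ± 7.64 CPM) per kb in every library. Other genes share 27.1% of the exon bases of Hoxa3 and 62.8% of those of Hoxd3, so that order is uncertain to that extent. In the pons Hoxb5 again came first (26.6 CPM), and Hoxd1 and Hoxb6 had means of 0.41 and 0.51 CPM.

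**Figure D2:**
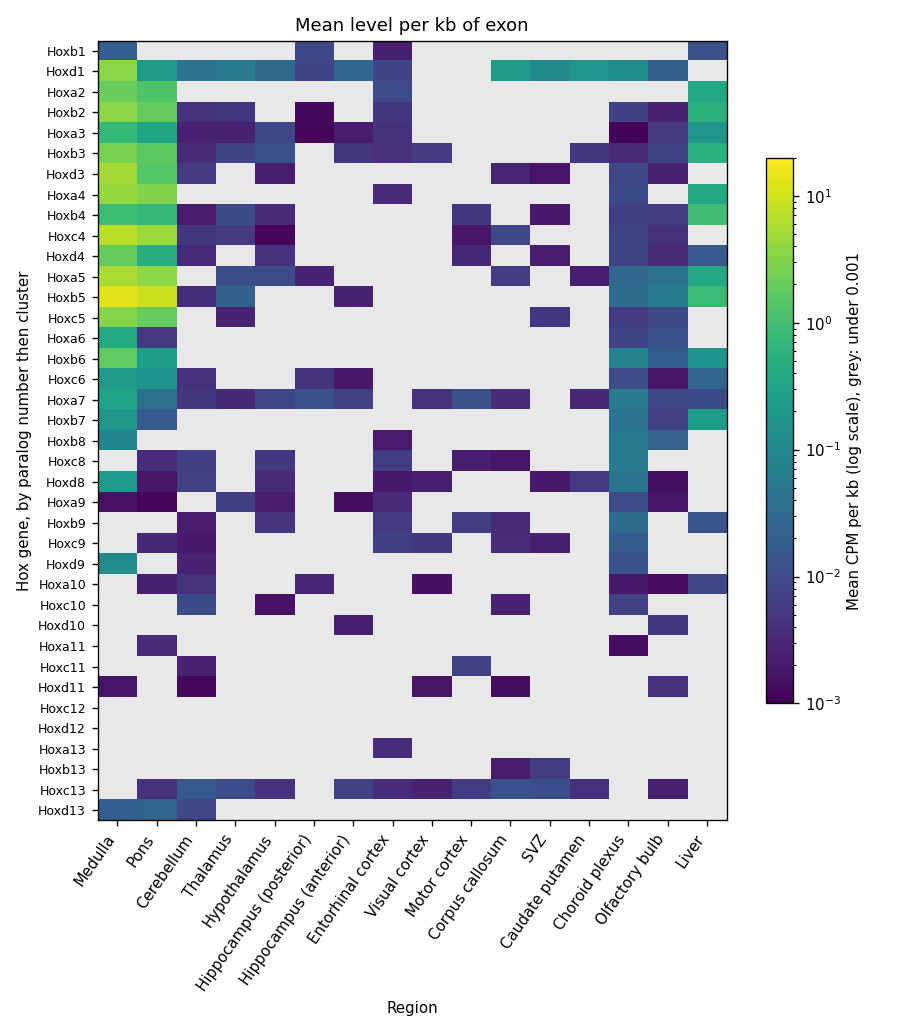
Mean level of Hox genes (rows, by paralog number and then cluster) in each region (columns), as CPM per kb of exon on a log colour scale, with grey for means under 0.001. The first to the fifth paralog groups fill the medulla and pons columns, the highest cell is Hoxb5 in medulla at 12.6 CPM per kb, and rows 10 to 13 are almost empty.

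The clusters were not represented alike in the tissues. Cluster B gave the largest mean share of the summed CPM per kb in medulla (34.8%), pons (40.4%) and liver (68.8%). Cluster D gave 22.3% in the medulla and 10.5% in the pons. The pons means were pulled by the library of AL mouse 68, which had the lowest Hox sum of that region. There cluster D held 56.6% and cluster B 0%, while the pons medians were 7.17% and 42.8%. Clusters C and D were nearly absent from the liver, at 0.37% and 0.47%. Liver held 5 members above 3 counts in at least 5 of its 9 libraries, namely Hoxb2, Hoxa3, Hoxb3, Hoxb4 and Hoxb5.

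Outside brainstem and liver, Hoxd1 gave recurring counts at a low level. The gene, known in mice for its part in pain-sensing neurons, had a count in 12 of 12 corpus callosum libraries (0.41 ± 0.22 CPM, highest count 7) and in 13 of 16 caudate putamen libraries (0.34 ± 0.30 CPM, highest count 7). It had none in the 16 motor cortex and 15 visual cortex libraries. At such counts the levels are imprecise, and 3 counts correspond to 0.0918 CPM in the deepest library and to 4.55 CPM in the shallowest.

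In the cerebellum, whose adult tissue lies beside both brainstem regions, Hox counts were close to none (0.40 ± 0.31 CPM summed, n = 15). Against cerebellum, 8 of 8 members that passed the filter on low counts were higher in the medulla in the diet experiment, where 39.9% of all genes tested were called higher (edgeR, adjusted p under 0.05), and 12 of 12 in the plasma experiment, where 37.2% were. Against thalamus the counts were 8 of 8 (33.2% of all genes called higher) and 7 of 7 (29.1%). These members passed the filter through the medulla alone and so had to differ, and their counts give no further support. With the mouse as a replicate block, 7 members were called against cerebellum in the plasma experiment (37.7% of all genes). Pons had 1 member, Hoxb3, past the filter in the plasma experiment, called higher than in cerebellum (34.3% of all genes) and than in thalamus (22.3%), and none in the diet experiment. Hoxb3 passed through the pons alone (at most 0.13 CPM in the plasma mice's cerebellum and thalamus), so these calls give no support either. With no filter on low counts, 16 members were called higher in pons than in cerebellum in the diet experiment (27.7% of genes) and 15 in the plasma experiment (26.6%), and 17 (16.6%) and 15 (17.4%) were called higher than in thalamus.

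The libraries of each brainstem region differed widely among themselves. In the medulla the spread grew with the paralog number. The coefficient of variation over 16 libraries was 21.04% for Hoxa2 and 32.02% for Hoxb2, 28.1% to 34.9% for the third group, 45.6% to 76.1% for the fourth, 77.5% to 101% for the fifth and 160% for Hoxb6. Hoxd1, of the first group, did not follow this order, with 99.2%. In the pons the second to the fifth groups lay together, between 56.2% and 76.3%.

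Low and high libraries were the same for most members. Of the 15 members with a median of at least 1 CPM in medulla or pons of either experiment, the medulla libraries of PBS mouse 84 and aDR mouse 64 were under the median of their experiment for 15, and those of aDR mouse 61 and PBS mouse 72 for 14. YMP mouse 81 was highest of its experiment for 10 members and aDR mouse 62 for 9. The share of cluster D in the summed CPM per kb was high in some libraries with a low Hox sum, at 35.6% for aDR mouse 61 and 35.4% for PBS mouse 84, and low in some with a high sum, at 6.22% for aDR mouse 62 and 8.48% for YMP mouse 81. PBS mouse 72 had both a low sum (56.1 CPM) and a low share of cluster D (9.01%). In PBS mouse 84 the choroid plexus markers summed to 308 CPM and the cerebellum markers to 117 CPM, Chat, the enzyme that makes acetylcholine, stood at 1.93 CPM and Hoxb5 at 0.23 CPM. In the other 15 medulla libraries Chat lay between 11.5 and 71.9 CPM. The part of these markers in the result was not tested.

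The labelled regions were checked against brainstem markers. Slc6a5, the transporter of glycine neurons, had 54.3 to 190 CPM in the medulla and 1.41 to 78.5 CPM in the pons. Tph2, of serotonin neurons, had 61.3 to 401 CPM in the pons and 5.54 to 267 CPM in the medulla, so that its ranges overlapped. Chat was at most 1.31 CPM in the pons, and Dbh and Slc6a2, of noradrenaline neurons, were at 0 in its PBS and YMP libraries.

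Among the pons libraries, 3 had few Hox transcripts and stood apart in other genes. AL mouse 68 had a Hox sum of 2.39 CPM, YMP mouse 77 of 7.26 CPM and aDR mouse 64 of 12.7 CPM, while the other 12 ranged from 39.5 to 168 CPM. In those 3 libraries Th, the dopamine-synthesis enzyme, stood at 1161, 1491 and 1320 CPM. In the other 12 it ranged from 0 to 300.7 CPM, with a median of 4.84 CPM. En1, which marks the midbrain and the anterior hindbrain, stood at 24.8, 28.6 and 19.8 CPM in the 3 and at most at 14.8 CPM in the rest. Otx2, a forebrain and midbrain factor, stood at 5.05, 4.84 and 5.51 CPM in the 3 and at most at 2.62 CPM in the rest. The pons library of aDR mouse 67 held 23.4% of its counts in 10 genes, against 5.72% to 7.12% in the other 14, and had a Hox sum of 39.5 CPM. Col1a2, a collagen of connective tissue, stood there at 551 CPM (6.93 to 31.2 CPM in the other 14), and Mbp, of myelin, at 3514 CPM (12036 CPM or more in the others). The part of these differences in the results was not tested. The tests between medulla and pons and of the treatments in the pons are given with and without these libraries, each left out of the fit of its own experiment. The 3 were chosen in part for the low Hox counts themselves.

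**Figure D3:**
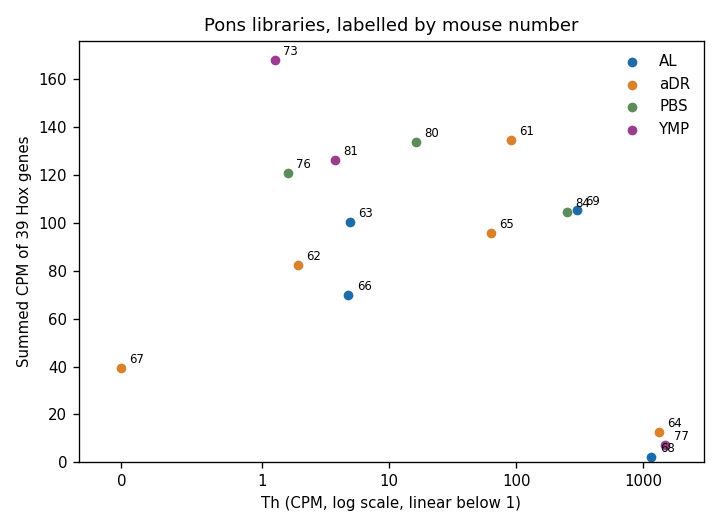
Summed Hox CPM (vertical axis) against Th CPM (horizontal axis, log scale that turns linear below 1) in the 15 pons libraries, with the mouse number beside each point and treatment by colour. The libraries of mice 64, 68 and 77 lie at the lower right, with Th at 1161 CPM or more and Hox sums of at most 12.7 CPM.

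Hoxd3, of the third paralog group, was higher in the medulla than in the pons in both experiments. In the diet experiment it had 21.2, 22.0, 25.7 and 36.5 CPM in the 4 AL medulla libraries and 12.8, 16.9, 18.9, 24.3 and 26.5 CPM in the 5 aDR ones. In the pons the AL libraries had 0.14, 4.84, 6.96 and 8.84 CPM and the aDR libraries 1.32, 1.70, 7.66, 8.93 and 10.4 CPM. The lowest medulla library stood above the highest of the pons. The log2 difference of medulla minus pons was 1.99 (SE 0.39, 95% interval 1.17 to 2.80, adjusted p = 0.00262, edgeR). Among the plasma mice Hoxd3 averaged 20.7 ± 9.08 CPM in the medulla (n = 7) and 6.77 ± 3.71 CPM in the pons (n = 6), with overlap at the PBS mouse 72 medulla library (4.28 CPM). The log2 difference there was 1.62 (0.60 to 2.63, edgeR adjusted p = 0.0457). The plasma call rested on single mice. Without any one of mice 73, 76, 80, 81 and 84 its adjusted p lay between 0.0871 and 0.141 in edgeR, with a log2 difference of 1.52 to 1.76.

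Hoxd4, its neighbour in cluster D, was also higher in the medulla in the diet experiment. It averaged 6.09 ± 2.73 CPM in the medulla and 1.24 ± 0.85 CPM in the pons (n = 9 and 9), a log2 difference of 2.23 (1.41 to 3.05, edgeR adjusted p = 0.00106). The lowest medulla library (1.90 CPM) lay within the pons range, which reached 2.41 CPM. Hoxd4 was low in the pons, and no member passed the filter in pons against cerebellum in the diet experiment. Hoxd4 thus leaned on the medulla libraries to be tested, so this call gives little further support. The plasma mice had means of 4.92 ± 2.86 and 1.92 ± 1.03 CPM, and the log2 difference of 1.30 (-0.01 to 2.61) did not pass the threshold (edgeR adjusted p = 0.233).

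Hoxd1 stands at the 3′ end of the same cluster. In the plasma experiment it had 0.77, 1.70, 2.20 and 6.01 CPM in the PBS medulla libraries and 2.40, 2.48 and 20.5 CPM in the YMP ones. In the pons it had 0, 0.23 and 0.30 CPM in the PBS libraries and 0, 0 and 0.63 CPM in the YMP ones. No pons library reached the lowest medulla library. The log2 difference was 4.27 (2.22 to 6.31, edgeR adjusted p = 0.0111). Hoxd1 passed the filter through the medulla alone and so had to differ, and this call gives no support. With no filter the log2 difference was 4.27 as well (edgeR adjusted p = 0.00721), where 3.29% of all genes were called higher. In the diet experiment Hoxd1 averaged 7.81 ± 6.46 CPM in the medulla and 0.56 ± 0.39 CPM in the pons (n = 9 and 9), and it did not pass the filter on low counts there, so it was not tested. With no filter it was called higher in the medulla in that experiment too, with a log2 difference of 3.75 (edgeR adjusted p = 0.00014, with 4.60% of all genes called higher).

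These were the called members. In the diet experiment 2 of the 13 members that passed the filter were called, both higher in the medulla (Hoxd3 and Hoxd4), where 6.56% of all genes tested were called higher. Hoxd3 and Hoxd4 share exons in which their reads cannot be told apart, so these 2 calls may not be separate. No member passed the filter in pons against cerebellum in that experiment, so all 13 leaned on medulla libraries to be tested. The 13 log2 differences all lay above 0, with a median of 1.05, while the median over all genes was -0.03. In the plasma experiment 2 of 14 were called higher (Hoxd1 and Hoxd3), against 4.46% of all genes, 1 of them the call of Hoxd1 that the filter fixed. There 7 of the 14 log2 differences lay above 0, with a median of 0.14. Only Hoxb3 passed the filter in pons against cerebellum among the plasma mice. Hoxd3 thus leaned on medulla libraries to be tested in both experiments, so its calls give little further support. Whether the region difference itself differed between the experiments was tested as a region by experiment term, and none of 13674 genes passed the threshold (0% called, edgeR). No Hox member reached an unadjusted p under 0.05 in that test.

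**Figure D4:**
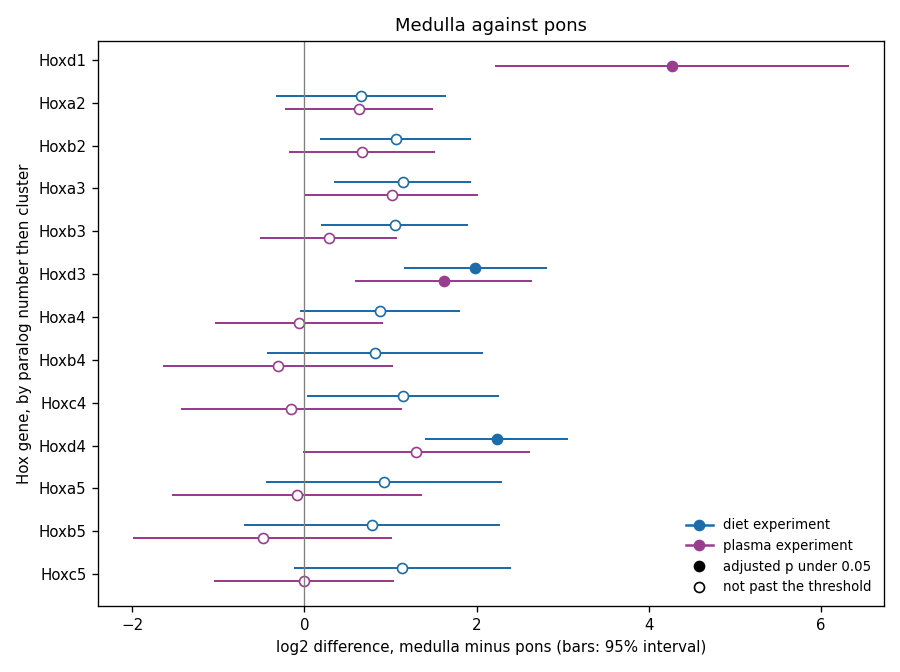
Log2 difference of medulla minus pons (horizontal axis, with 95% intervals) for Hox genes that passed the filter on low counts, in the diet (blue) and plasma (purple) experiments, with filled points for an adjusted p under 0.05. Filled points are Hoxd3 in both experiments, Hoxd4 in the diet and Hoxd1 in the plasma experiment.

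The other paralogs of the second and the third groups had differences of the same sign that did not pass the threshold in edgeR. In the diet experiment Hoxa3 had 4.39 ± 0.98 CPM in the medulla and 1.93 ± 1.22 CPM in the pons, a log2 difference of 1.15 (edgeR adjusted p = 0.0511). DESeq2 called it, with a log2 difference of 1.17 (adjusted p = 0.012). Hoxb2 stood at a log2 difference of 1.06 and Hoxb3 at 1.05. Hoxa2, which sets the identity of the second rhombomere and steers pontine neurons, had 3.66 ± 0.89 and 2.19 ± 1.87 CPM, a log2 difference of 0.66 (-0.32 to 1.63). The plasma experiment gave these 4 genes log2 differences of 1.01, 0.67, 0.28 and 0.64.

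The fourth and the fifth groups gave no call in either experiment outside Hoxd4. In the diet experiment Hoxc4 stood at a log2 difference of 1.14, Hoxc5 at 1.14, Hoxa5 at 0.92, Hoxa4 at 0.88, Hoxb4 at 0.82 and Hoxb5 at 0.79. Among the plasma mice the same genes stood at -0.15, 0.00, -0.09, -0.06, -0.31 and -0.48. Their intervals all reached down to 0.04 or lower in the diet experiment and spanned 0 in the plasma experiment.

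In the diet experiment the Hox-poor pons libraries were those of AL mouse 68 and aDR mouse 64. In the plasma experiment the only one was that of YMP mouse 77. Without them, 6 members were called higher in the medulla in the diet experiment, against 9.46% of all genes. They were Hoxd3 (log2 difference 1.68), Hoxd4 (1.94), Hoxd1 (3.72), Hoxa3 (0.82), Hoxb3 (0.71) and Hoxb2 (0.74). The plasma experiment kept 2 calls, Hoxd1 (3.65) and Hoxd3 (1.26), against 5.92% of all genes. Within the control mice alone the calls were 3 in the diet experiment (Hoxd3, Hoxd4 and Hoxd1, against 2.26% of all genes) and 0 in the plasma experiment (1.83%). Hoxd1 stood low in the pons in all these fits, so its calls after the filter give no support. In the plasma controls edgeR gave 4 members an unadjusted p under 0.05, counted in either direction. The share of all genes at that level was not counted for that fit, so the 4 give no support. With the mouse as a replicate block, Hoxa3 joined Hoxd3 and Hoxd4 in the diet experiment (log2 difference 1.33, edgeR adjusted p = 0.0391, against 4.65% of all genes), and Hoxd1 and Hoxd3 were called in the plasma experiment (3.82%).

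Cofactors and regulators of Hox genes were read in the same comparison. Among all genes, 6.56% were called higher and 6.15% lower in the medulla in the diet experiment, and 4.46% higher and 4.54% lower in the plasma experiment. Of the 9 cofactors of the TALE class, which bind DNA together with Hox proteins, Meis2 was higher in the medulla in both experiments, at 138 ± 15.1 against 64.3 ± 37.3 CPM in the diet experiment (log2 difference 1.11, edgeR adjusted p = 0.0123) and at 136 ± 10.4 against 57.7 ± 24.4 CPM in the plasma experiment (1.26, edgeR adjusted p = 0.00913). Pknox2 was lower in the diet experiment (log2 difference -0.54), though not without the Hox-poor pons libraries of that experiment (-0.40, edgeR adjusted p = 0.114). Thus 1 of 9 was called higher and 1 lower in the diet experiment, and 1 higher in the plasma experiment. Meis1 showed values of -0.05 and 0.07, neither past the threshold. Without the Hox-poor pons libraries, Meis1 (-0.25), Pbx3 (0.41) and Meis3 (0.28) were also called in the diet experiment.

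Of 13 genes of hindbrain patterning and retinoic acid, 7 were tested. Gdf11, a secreted factor of axial patterning, was higher in the medulla in both experiments (log2 differences 0.46 and 0.60). Aldh1a2, which makes retinoic acid, was lower in the plasma experiment (-1.71). Cdx1 and Cdx2, activators of trunk Hox genes, were at 0 or near it, with at most 0.07 CPM in a medulla library.

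Of 13 genes of anterior and mid-hindbrain identity, 6 were tested. Gbx2, an anterior hindbrain factor, was higher in the medulla in both experiments (log2 differences 2.17 and 2.59). Irx2 was lower in both (-2.85 and -2.89). Irx5 was lower in the diet experiment (-0.71), and En1 (-2.24) and Irx3 (-0.38) were lower in the plasma experiment. Without the Hox-poor pons libraries, which were chosen in part for their En1 counts, these 3 were not called, at -0.51 for Irx5 (edgeR adjusted p = 0.112), -1.31 for En1 (0.105) and -0.36 for Irx3 (0.0567), while the calls of Gbx2 and Irx2 held. Without the pons library of aDR mouse 67, En1 (-1.88) and Irx3 (-0.64) were called lower in the diet experiment too. Of 19 Polycomb and Trithorax genes, which keep Hox genes silent or active, 6 were lower in the medulla in the diet experiment. These were Jarid2 (log2 difference -0.44), Cbx7 (-0.41), Cbx8 (-0.47), Cbx2 (-0.81), Phc2 (-0.20) and Eed (-0.25). In the plasma experiment 1 was lower, Jarid2 (-0.42). These calls held without the Hox-poor pons libraries, where Ezh1 was called lower in the plasma experiment as well (-0.25). Without the pons library of aDR mouse 67, Ezh1 (-0.24) and Men1 (-0.18) were also called lower in the diet experiment, and Kdm6b (0.32) was called higher.

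Transcripts made from the clusters without a protein were seen in the same regions. Of 15 listed, 4 passed the filter. Hotairm1, a transcript of cluster A, had 13.5 ± 2.89 CPM in the medulla, 7.38 ± 2.78 CPM in the pons and 1.59 ± 0.65 CPM in the hypothalamus. It was called higher in medulla than pons in the diet experiment (log2 difference 1.04) but not in the plasma experiment (0.71), with and without the Hox-poor pons libraries. Hoxb3os had 20.4 ± 5.66 CPM in the medulla and 10.5 ± 5.58 CPM in the pons. In the diet experiment it was not called (1.21, edgeR adjusted p = 0.0542), and it was called without the Hox-poor libraries (0.89) or without the pons library of aDR mouse 67 (1.14). Hoxaas2 had 7.64 ± 1.28 and 5.49 ± 3.15 CPM. Hoxb5os had 3.73 ± 3.78 and 2.56 ± 1.80 CPM. Hotair and Hottip, which lie among the posterior genes, had no counts in either region.

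The genes whose regional pattern was most like the summed Hox level were ranked by Pearson r over the 15 region means of the diet experiment, among 13001 genes with at least 2 CPM in medulla. The first 10 held 4 transcripts of the clusters, Hoxaas2 (r = 0.983), Hoxb3os (0.982), Hoxb5os (0.979) and Hotairm1 (0.949). Evx1, a homeobox gene beside cluster A, had r = 0.981. The rest included Prok1 (0.975), Slc6a4, the serotonin transporter (0.971), Abtb2 (0.960) and Slc4a9 (0.956). Over the plasma means r was 0.702 for Prok1 and 0.930 to 0.995 for the other 9. The 15 means come from the same animals and share their libraries' depth, and 2 regions carry nearly all of the Hox level.

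In the medulla most members had higher values in YMP than in PBS mice, but no gene passed the threshold. Hoxb5 had 0.23, 13.2, 13.5 and 15.9 CPM in the PBS libraries and 32.6, 37.3 and 94.3 CPM in the YMP libraries, so that the groups did not overlap. Its log2 difference of YMP minus PBS was 2.39 (1.01 to 3.77), with an adjusted p of 0.438 in edgeR. Hoxa5 had 0.34, 3.79, 4.51 and 5.92 CPM against 8.48, 10.7 and 35.9 CPM, a log2 difference of 2.37 (1.02 to 3.72, edgeR adjusted p = 0.438). Hoxb2 had 7.40, 7.49, 10.4 and 13.2 CPM against 14.3, 15.1 and 17.9 CPM, a log2 difference of 0.76 (0.31 to 1.2, edgeR adjusted p = 0.438). The largest difference was that of Hoxb6, with 0.54 ± 0.39 CPM in PBS (n = 4) and 7.29 ± 9.65 CPM in YMP (n = 3), a log2 difference of 3.88 that leaned on 18.4 CPM in YMP mouse 81. Hoxb6 was low in the PBS libraries and leaned on the YMP ones to pass the filter, so its difference gives no support.

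Over the 15 members tested in that comparison, 0 were called, as were 0 of 13886 genes (0%). In edgeR 11 members had an unadjusted p under 0.05, all higher in YMP, where 3.70% of all genes did. DESeq2 called 0 members, with 9 at an unadjusted p under 0.05 and a smallest adjusted p of 0.119. The log2 difference lay above 0 for 14 of the 15, with a median of 1.40, against 0.00 over all genes. Every YMP value exceeded every PBS value for 9 members (Hoxb2, Hoxb3, Hoxa4, Hoxb4, Hoxc4, Hoxa5, Hoxb5, Hoxc5 and Hoxb6), and for 3.82% of all genes. The median without any 1 mouse lay between 0.99 and 1.93, and 9 to 11 members had an unadjusted p under 0.05. For these fits and for DESeq2 the share of all genes at that level was not counted. Hoxb6, which leaned on the YMP libraries to be tested, is among the 14 and the 9 and adds no support to them. The members share libraries, so their counts are not independent.

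Other measures moved in the same libraries. The 5 oligodendrocyte markers summed to 24384 to 29405 CPM in the PBS medulla libraries and to 19564 to 25023 CPM in the YMP ones. The 9 brainstem neuron markers summed to 201 to 383 CPM in PBS and to 305 to 453 CPM in YMP, with none at 0. The 7 choroid plexus markers summed to 7.04 to 308 CPM in PBS and to 2.62 to 6.92 CPM in YMP, with Folr1 at 0 in YMP. Their part in the result was not tested. The labels do not say whether the groups were dissected or prepared together, and the p-values measure the spread between these mice.

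**Figure D5:**
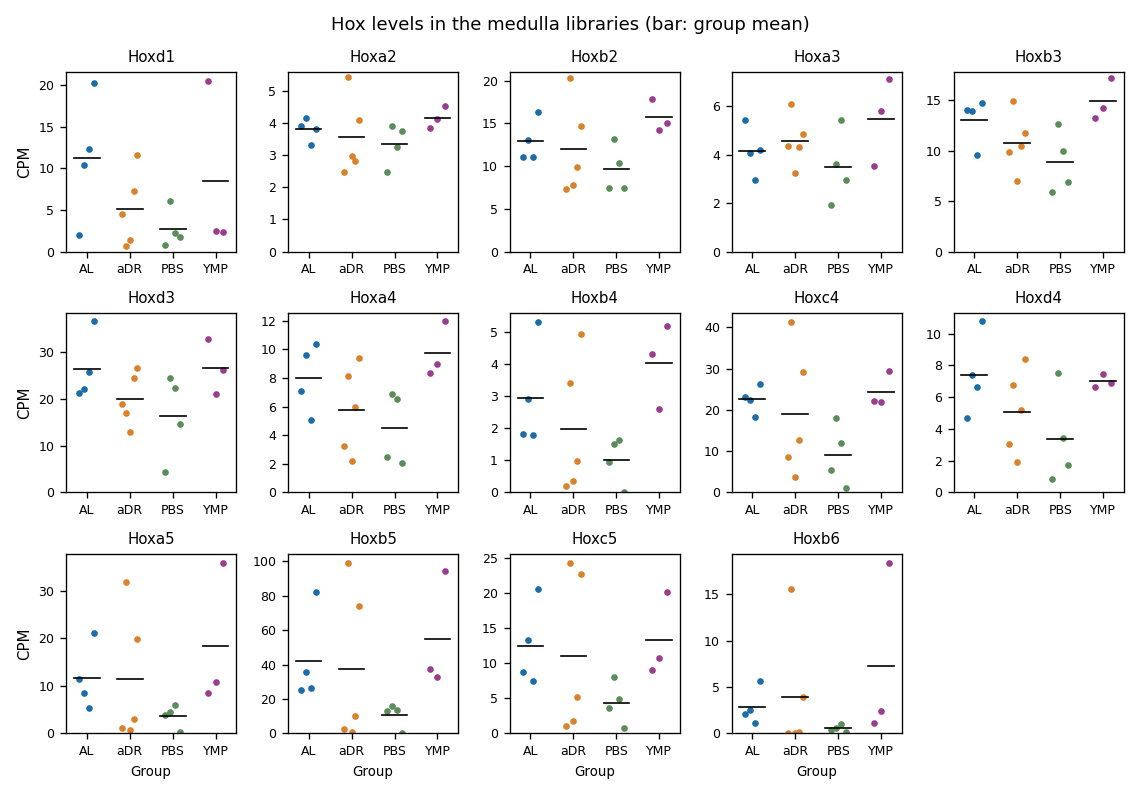
CPM of 14 Hox genes (panels) in the 16 medulla libraries by treatment group, with 1 point for each mouse and a bar at the group mean. In the Hoxb5 panel the YMP points (32.6 to 94.3 CPM) all lie above the PBS points (0.23 to 15.9 CPM), and the aDR points spread from 0.91 to 99.0 CPM around the AL points.

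Diet restriction gave no called member in the medulla. Of 17 members tested, 0 were called in edgeR, where 0.00714% of all genes were, and none reached an unadjusted p under 0.05. DESeq2 also called 0, with 0 at an unadjusted p under 0.05. The log2 difference of aDR minus AL was under 0 for 16 of 17, with a median of -0.47. Hoxb5 had 0.91, 2.84, 10.3, 73.7 and 99.0 CPM in the aDR and 25.3, 26.4, 35.6 and 82.0 CPM in the AL libraries, so that the aDR values lay both below and above those of AL. Its log2 difference was -0.47 (-2.35 to 1.41). Hoxd3 had 19.9 ± 5.54 CPM in aDR and 26.3 ± 7.06 CPM in AL mice, a log2 difference of -0.37 (-0.83 to 0.09). Without aDR mouse 67 the median was -0.95 and 7 members had an unadjusted p under 0.05, the adjusted p staying at 0.497 or more in edgeR. Over the 9 fits with 1 mouse left out, the median ran from -0.95 to -0.18 and the members at that level from 0 to 7. The share of all genes at that level was not counted for these fits, so the 7 give no support.

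In the pons neither treatment gave a called member. Of 10 members tested in the diet experiment and 12 in the plasma experiment 0 were called in edgeR or DESeq2, as were 0% of all genes in edgeR in both, and 0 members had an unadjusted p under 0.05 by either tool. Hoxb5 had 2.97, 15.8, 21.7, 26.9 and 46.4 CPM in aDR and 0, 18.3, 32.1 and 33.3 CPM in AL mice. It had 0.92, 36.0 and 58.2 CPM in YMP and 29.5, 38.0 and 39.5 CPM in PBS mice. The 3 libraries of low Hox counts held the lowest value of their group each time. The median log2 difference in the plasma experiment was -0.33, without YMP mouse 77 it was 0.40, with 4 members at an unadjusted p under 0.05, and without YMP mouse 73 it was -1.57, with 3. The share of all genes at that level was not counted for these fits, so the 4 and the 3 give no support. Whether the plasma difference was larger in the medulla than in the pons was tested as a treatment by region term. The term lay above 0 for 14 of 14 members, with a median of 1.46, and the smallest adjusted p was 0.970 in edgeR. Without the pons library of YMP mouse 77 it lay above 0 for 13 of 14, with a median of 0.82, and no member was called in edgeR, with 1 at an unadjusted p under 0.05. For that fit too the share of all genes at that level was not counted.

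In liver 2 members passed the filter, and neither differed between the diets (0 called, 0 at an unadjusted p under 0.05, by edgeR and by DESeq2), where 0.220% of all genes were called in edgeR. Hoxb3 had 2.45 ± 1.33 CPM in restricted and 2.17 ± 1.29 CPM in AL mice (n = 5 and 4), and Hoxb4 had 2.60 ± 2.10 and 2.31 ± 1.51 CPM. Their log2 differences were 0.25 (-0.92 to 1.42) and 0.32 (-1.03 to 1.67). In the other 13 brain regions no member passed the filter in either experiment. TALE, patterning, Polycomb and noncoding lists gave no called gene in any treatment comparison of medulla or pons.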

How the data were processed

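Bulk RNA was measured in 229 libraries of 15 brain regions and 9 of liver, made from full-length cDNA with no strand information, per the labels' protocols. The authors deposited a table of raw counts for 21076 genes. The submitters' processing notes name Trim Galore 0.3.7, STAR 2.5.3a, DESeq2 and GRCm38, and the counting program and gene annotation are not given in the sources used here. Total counts ran from 0.606 M to 32.4 M per library (median 8.44 M). The 47 replicate pairs differed by more than sampling noise (smallest chi-square per degree of freedom 2.11), so none was counted once.

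CPM used TMM sizes over all libraries, and exon lengths and overlaps came from GENCODE M21. A count of 3 was the detection floor. Comparisons were fitted on all genes with edgeR 4.0.16 in R 4.3.3 (quasi-likelihood test, filterByExpr with a count minimum of 10 and a total of 15, TMM, Benjamini-Hochberg threshold 0.05), within each experiment. DESeq2 1.42.0, other size factors, no filter, control libraries alone, the mouse as block and each mouse left out were alternatives. The 2 regions were treated as independent in the main region fit. Same-numbered medulla and pons libraries come from the same animal, which makes the pairing one of design, and their deviations correlated weakly (mean r = 0.087 over 9 pairs in the diet and 0.050 over 6 pairs in the plasma experiment). The fits were tested on simulated data with the same fixed spread for every gene. The wide spread of the Hox members was not simulated, so that test does not show how well the fits do for them.

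Named members were those with a median of at least 1 CPM in medulla or pons of either experiment, and the genes of like pattern were the 10 of highest r on log2(CPM + 1) region means. The members and lists were chosen with earlier results of these data known. Some genes of these groups are not reported here.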

Additional observations from a re-analysis of the deposited data

Results flagged for a closer look

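In 39 region and treatment groups of 4 or more mice, the highest or lowest summed Hox level stood far from the rest in 4, and in 75 groups of single named members in 5. The cutoffs flag about 1 group in 20 by chance when values are independent and normally distributed. That rate does not hold here. In a group at 0 in all but 1 library, any stray read is flagged, and the members share libraries.

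The choroid plexus library of aDR mouse 61 had a Hox sum of 17.6 CPM, with 3.12 CPM in the next of 5. The olfactory bulb library of AL mouse 68 had 7.38 CPM, with 0.275 CPM in the next of 4. The entorhinal cortex library of PBS mouse 84 had 0.27 CPM and the visual cortex library of AL mouse 69 had 0.149 CPM, with 0 in the other 3 libraries of each group.

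Among single members, the pons library of AL mouse 68 had no count of Hoxb2 (0 CPM, nearest 6.96) and none of Hoxb3 (0 CPM, nearest 6.69). The medulla library of the same mouse had 9.58 CPM of Hoxb3, with 13.9 CPM in the nearest. Hoxb6 reached 15.6 CPM in the medulla of aDR mouse 62 (nearest 3.92) and 0.754 CPM in the pons of aDR mouse 61 (nearest 0.105).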

How the results depend on the processing

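Of the values of single members, 444 kept their direction and side of the threshold, 9 passed it newly, 7 no longer passed it and 35 changed sign. The counts of called members in the treatment comparisons stayed at 0 in all 50 alternatives. With no filter, members called higher numbered 6 for medulla against pons (diet, 4.60% of all genes called higher), 23 and 20 for medulla against cerebellum (diet 31.9%, plasma 30.7%), 21 and 19 for medulla against thalamus (24.7%, 22.7%), 16 and 15 for pons against cerebellum (27.7%, 26.6%), 17 and 15 for pons against thalamus (16.6%, 17.4%), and 1 for choroid plexus against SVZ (diet, 18.2%). Control libraries alone gave 0 for medulla against pons in the plasma experiment (1.83%), 15 and 14 for medulla against cerebellum and thalamus (diet, 32.4% and 21.4%), and 12 and 12 for pons against cerebellum and thalamus (plasma, 27.6% and 15.3%). Medulla against pons in the diet experiment gave 6 without its Hox-poor pons libraries (9.46%) and 4 without the pons library of aDR mouse 67 (10.2%), both chosen after seeing the data. With 1 mouse left out it gave 2 to 4 (4 without mouse 68, 5.40%), and 1 to 2 in the plasma experiment (2.07% to 5.62%).

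With the mouse as a replicate block, 7 members were called for medulla against cerebellum (plasma, 37.7%), and medulla minus pons in the plasma experiment turned to 0.13 for Hoxa4, 0.062 for Hoxc4 and 0.14 for Hoxc5. Apart from these and the call of Hoxa3, the block moved no call between medulla and pons.

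Other changes of sign were in small differences, and their cause was not tested. Without the Hox-poor pons libraries, medulla minus pons was -0.051 for Hoxb3 (plasma), and YMP minus PBS in the pons was 0.48 for Hoxb5, 0.24 for Hoxd3 and 0.10 for Hoxc4. Hoxb3 stood at -0.38 in the plasma controls alone. With 1 mouse left out, medulla minus pons in the plasma experiment ran from -0.42 to 0.14 for Hoxa4, -0.57 to 0.16 for Hoxc4, -0.68 to 0.24 for Hoxa5, -0.39 to 0.24 for Hoxc5, -0.0561 to 0.48 for Hoxb3 and -0.69 to 0.17 for Hoxb4. The diet difference of Hoxb5 in the medulla ran from -1.58 to 0.0805. In the pons, diet differences ran from -0.29 to 0.46 for Hoxb5, -0.15 to 0.63 for Hoxd3 and -0.48 to 0.23 for Hoxc4, and plasma differences from -1.45 to 0.48, -1.86 to 0.24 and -1.76 to 0.10.

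At 10 counts in at least 50% of a group's libraries, detected members numbered 3 in liver and 0 in caudate putamen, cerebellum, choroid plexus, corpus callosum, entorhinal cortex, anterior hippocampus, olfactory bulb, SVZ and thalamus. Such low counts limit what can be said of single Hox genes outside brainstem and liver.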

Other observations

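In the choroid plexus library of aDR mouse 61 the Hox counts were of later paralogs than in the brainstem, with 44 counts of Hoxc8, 41 of Hoxa7, 41 of Hoxb6, 35 of Hoxb8, 27 of Hoxd8 and 25 of Hoxb5. Hoxc8, a gene of the trunk, had no count in any medulla library. In the olfactory bulb library of AL mouse 68 the counts were 31 of Hoxb5, 14 of Hoxa5, 11 of Hoxb8 and 7 of Hoxb6.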
